A study of Mus musculus with 6 samples.

Results

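CD4 T cells cultured toward the Th2 lineage for 3 days were compared between NLRP3KO and wild-type (WT) mice, with 1 RNA library per genotype; these 2 libraries were taken by their sample titles from the 6 libraries of the series. Naive CD4 T cells came from spleen and lymph nodes of C57/Bl6j mice aged 7 weeks, either Wild-type or NLRP3-/-. The cultures were stimulated through CD3 and CD28 by antibodies bound to the plate and received 10 ng/ml IL-4 together with an antibody that blocks IFNgamma. RNA from 300000 Th2 cells was depleted of ribosomal RNA before library preparation. Both day 3 libraries shared this treatment, so genotype was the labelled difference between them. The labels name no number of animals behind a culture, and fewer cells of a type cannot be told apart from less RNA per cell in such bulk libraries. With 1 library per genotype no p-value could be given, and each difference below is between libraries, not between groups of mice.

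NLRP3 is a cytosolic sensor that assembles an inflammasome with the adaptor ASC and caspase-1, which then cleaves pro-interleukin-1 beta. In CD4 T cells NLRP3 has also been described in the nucleus as a partner of IRF4 on Th2 genes. Th2 cells are the helper lineage that makes IL-4, IL-5 and IL-13 under the transcription factor GATA3. Activated T cells of any lineage grow and divide for several days, and this phase draws on amino acid uptake, one-carbon metabolism, ribosome production and glycolysis.

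The values are FPKM, fragments scaled to transcript length and library total, with lower and upper confidence bounds that the authors deposited for each gene model. In both files the bounds fell on whole-number steps, from which the number of fragments behind a value could be read. About 25765 fragments lay on genes in the WT library and 22446 in the NLRP3KO library, out of totals behind the FPKM of about 604215 and 475063. Rn45s, the ribosomal RNA precursor, stood at 57645 FPKM in WT and 63242 FPKM in NLRP3KO. The median FPKM that 3 fragments would give was 2.42 in WT and 3.13 in NLRP3KO, so the NLRP3KO library was the shallower one. The 13 markers of CD4 T cells were above 0 in 13 cases in WT and 12 in NLRP3KO, the exception being Cd3d, listed at 0 in NLRP3KO. Of 80 gene models marking B, myeloid, CD8 and NK, erythroid, granulocyte and stromal cells, 1 was above 0 in WT (summed FPKM 1.57) and 3 in NLRP3KO (summed FPKM 1.82). Xist was at 13.7 FPKM in WT and 17.6 in NLRP3KO, and Ddx3y, Eif2s3y, Kdm5d and Uty were at 0 in both. The 2 day 3 libraries were therefore alike in their sex-linked transcripts.

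The deleted gene gave no check of the genotype. Nlrp3 (mm9 chr11:59356188-59380458) was listed at 0 in both day 3 libraries and both day 6 libraries, and at 0.0569 FPKM in naive WT cells. At day 3 an FPKM of 1.27 in WT or 1.62 in NLRP3KO would correspond to 3 fragments, the limit that a count of 0 allows. The genotype of the NLRP3KO library thus rests on its label.

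Across the transcriptome, 5749 gene models were kept, meaning that they had status OK and an FPKM of at least 1 in 1 of the 2 libraries. Of these, 1461 (25.4%) lay 2-fold or more above WT in NLRP3KO and 1563 (27.2%) 2-fold or more below, on the log2 scale of scaled FPKM plus a pseudocount of 1. Most of these differences rested on few fragments, and 49.5% of kept genes had under 3 fragments in both libraries. A stricter count took those 2-fold differences in genes above 0 in both libraries whose deposited bounds, scaled like the FPKM, did not overlap, and these genes are said below to have bounds apart. By that count 47 genes (0.818%) were higher in NLRP3KO and 32 (0.557%) were lower. Without scaling the split was 66 higher and 25 lower. The median log2 difference of kept genes above 0 in both libraries was 0.11, and it moved between 0.00 and 0.24 with the scaling. Each log2 difference below includes that shift.

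**Figure D1:**
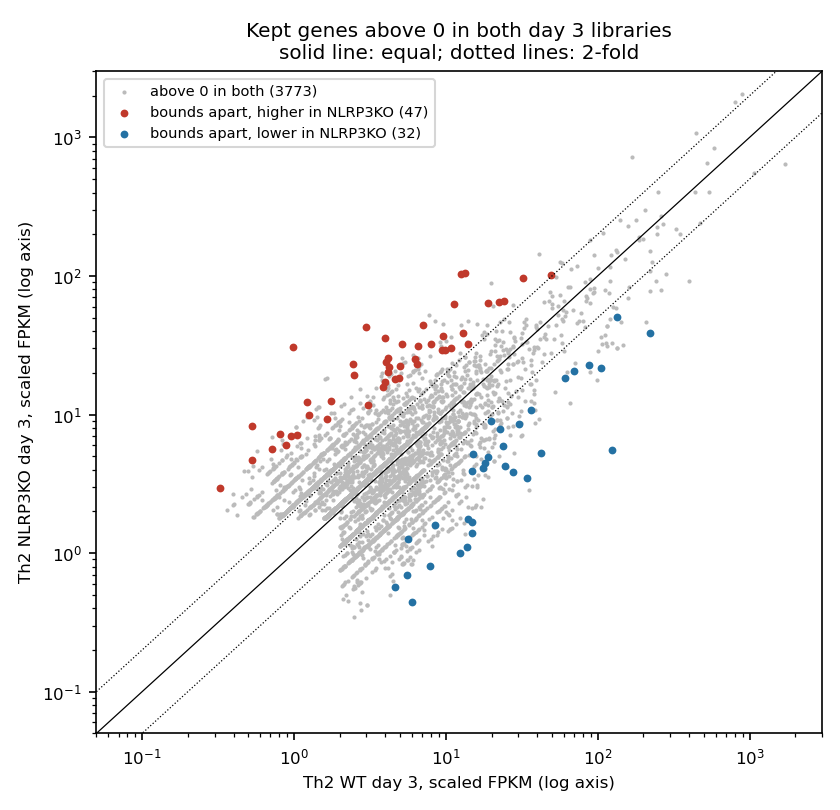
Scaled FPKM of each kept gene above 0 in both day 3 libraries, WT on the horizontal axis and NLRP3KO on the vertical axis, both logarithmic. Points are genes, red marks the 47 genes and blue the 32 genes at least 2-fold apart whose bounds do not overlap, the solid line marks equal values and the dotted lines 2-fold, and the band of grey points widens toward low values.

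Gene lists were described by the fragments summed over their members, as a share of fragments on genes, NLRP3KO over WT, with an exact 95% interval that covers counting error only. Of 44 lists with at least 5 kept members, 19 had an interval above 1 and 17 an interval below 1. Without the member with most fragments, 11 of the 19 and 16 of the 17 kept such an interval. Some genes sit in several lists, so these counts are not independent. Counts of members at least 2-fold higher or lower are to be read against the 25.4% and 27.2% of all kept genes. Counts of members with bounds apart are to be read against 0.818% higher and 0.557% lower. Among lists with over 100 fragments in each library, genes induced by hypoxia-inducible factor, secreted and matrix genes, p53 targets and Treg-linked genes had the highest ratios. Amino acid transporters, histones, ribosome biogenesis genes and aminoacyl-tRNA synthetases had the lowest ratios of the 44.

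**Figure D2:**
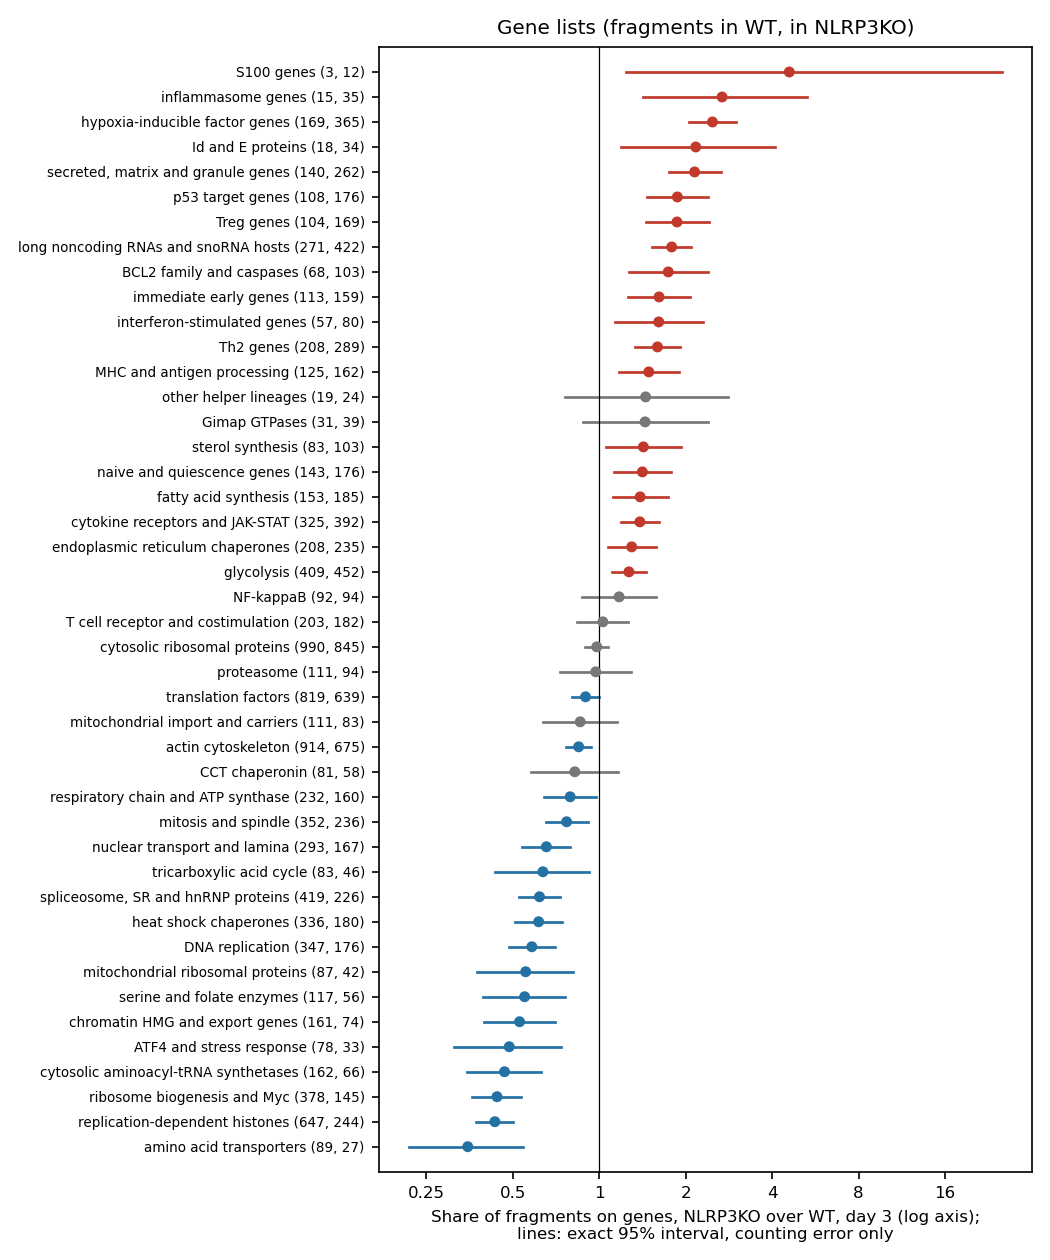
Ratio of the share of fragments, NLRP3KO over WT at day 3, for the 44 gene lists with at least 5 kept members, on a logarithmic axis. Points are ratios, lines are exact 95% intervals for counting error, red intervals lie above 1, blue below 1 and grey ones hold 1, and the ratios run from 0.348 for amino acid transporters to 4.59 for S100 genes. The S100 ratio rests on 3 and 12 fragments and is 2.30 (0.490 to 14.2) without S100a6.

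Genes of the hypoxia response were higher in NLRP3KO across much of the list. Hypoxia-inducible factor is a transcription factor whose alpha subunit is hydroxylated and degraded when oxygen is plentiful, and its targets include glucose transporters, prolyl hydroxylases and mitophagy receptors. In 16 of 35 kept members the difference was 2-fold or more upward and in 2 downward, against 25.4% and 27.2% of all kept genes, and 7 had bounds apart, all higher. The list held 169 fragments in WT and 365 in NLRP3KO, a ratio of 2.48 (interval 2.06 to 2.99). Without Slc2a3, its most abundant member, the ratio was 2.21 (1.82 to 2.70). The median log2 difference of its kept members was 0.80, against 0.11 over all kept genes.

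Egln3, the prolyl hydroxylase PHD3 that marks the alpha subunit for degradation and is itself a target, lies at mm9 chr12:55279968-55304861. It stood at 1.96 FPKM (bounds 0 to 3.71) in WT and at 19.95 (12.6 to 27.5) in NLRP3KO, from 3 and 24 fragments. Its ratio of shares was 9.18 (2.79 to 47.6), so its size is loosely fixed although the bounds are apart. Ero1l, which oxidises disulfide-forming enzymes in the endoplasmic reticulum, went from 3.49 FPKM (1.498 to 5.62) to 25.1 (18.6 to 31.9), a ratio of 6.505 (3.17 to 15.0). Slc2a3, the high-affinity glucose transporter GLUT3, went from 5.64 FPKM (2.93 to 8.36) to 35.3 (26.6 to 44.1), from 13 and 64 fragments. For these genes the NLRP3KO value lay beyond the WT upper bound by a wide margin. Bnip3, a mitophagy receptor, had 2 and 11 fragments, and Ndrg1, a stress-responsive gene, 2 and 18. Hif1a, the alpha subunit itself, was higher too, at 4.66 FPKM (2.43 to 6.95) in WT and 16.4 (11.05 to 21.7) in NLRP3KO, a ratio of 3.18 (1.65 to 6.53).

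Other targets were level or lower. Slc2a1, the glucose transporter GLUT1, was at 6.14 FPKM in WT and 8.67 in NLRP3KO with overlapping bounds. Tfrc, the transferrin receptor, was at 9.37 and 6.62 FPKM, Pdk1, which restrains pyruvate oxidation, at 2.65 and 1.69, and Kdm3a, a histone demethylase, at 2.84 and 1.35. The bounds of those 3 genes overlapped as well. Adm, Ankrd37, Car9 and Hmox1 were listed at 0 in both libraries.

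**Figure D3:**
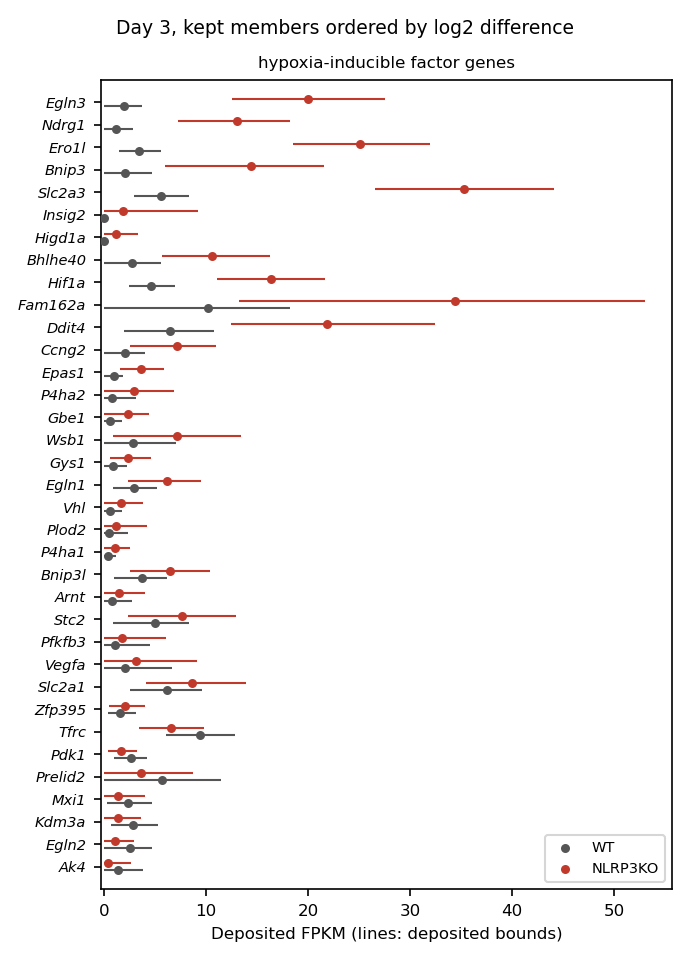
Deposited FPKM of the 35 kept hypoxia-inducible factor genes at day 3, ordered by log2 difference, with WT in grey and NLRP3KO in red. Points are FPKM and lines the deposited bounds, and Egln3, Ndrg1, Ero1l, Bnip3 and Slc2a3 head the order with bounds apart, while Tfrc, Pdk1 and Kdm3a lie the other way.

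The promoters of 4 higher genes are shown because the hypoxia list is defined by a factor with a short known binding core; Egln3, Bnip3 and Ero1l are members of it, and Pgk1 stands in the glycolysis list described next. The letters are RefSeq sequence of GRCm38.p6, 250 bases before the gene start, and capitals mark ACGTG or GCGTG on either strand, the core of the hypoxia response element.
Egln3 (chr12:54203875-54204124, minus strand): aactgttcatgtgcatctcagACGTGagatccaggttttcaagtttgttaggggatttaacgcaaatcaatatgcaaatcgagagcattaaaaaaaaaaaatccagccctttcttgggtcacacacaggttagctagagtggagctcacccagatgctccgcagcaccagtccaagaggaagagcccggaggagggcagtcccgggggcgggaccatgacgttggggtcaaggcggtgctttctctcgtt
Bnip3 (chr7:138909507-138909756, minus strand): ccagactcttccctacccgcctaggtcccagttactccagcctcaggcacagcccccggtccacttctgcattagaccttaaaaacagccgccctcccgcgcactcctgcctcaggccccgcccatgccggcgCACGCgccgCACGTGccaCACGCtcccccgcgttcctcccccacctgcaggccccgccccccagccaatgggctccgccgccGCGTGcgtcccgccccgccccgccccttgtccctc
Ero1a, the current symbol of Ero1l (chr14:45318573-45318822, minus strand): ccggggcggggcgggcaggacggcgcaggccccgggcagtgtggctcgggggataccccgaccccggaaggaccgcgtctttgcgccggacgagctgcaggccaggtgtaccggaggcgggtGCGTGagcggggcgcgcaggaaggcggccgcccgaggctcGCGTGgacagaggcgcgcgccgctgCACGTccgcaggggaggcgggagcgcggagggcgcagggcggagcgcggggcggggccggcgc
Pgk1 (chrX:106186850-106187099, plus strand): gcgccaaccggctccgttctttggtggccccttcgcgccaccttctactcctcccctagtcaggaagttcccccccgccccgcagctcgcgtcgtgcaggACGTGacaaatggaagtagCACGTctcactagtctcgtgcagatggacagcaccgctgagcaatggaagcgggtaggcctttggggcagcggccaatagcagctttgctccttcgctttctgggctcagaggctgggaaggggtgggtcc
The core appeared 1, 5, 3 and 2 times in these windows. Promoters were matched for 27 of the 35 kept list members, and 24 of the 27 (88.9%) held the core. The same share was 65.1% among the 4175 kept genes with a promoter, and 41.5% among all 27025 genes with one (38.6% of single promoters). The list was drawn from known targets, so a high share follows from how it was made, and a match is not evidence of binding.

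Glycolysis shares targets with that response and had a smaller ratio. The 25 glycolytic genes held 409 and 452 fragments, a ratio of 1.27 (1.11 to 1.45), and 14 of 19 kept members above 0 in both libraries were higher. By 2-fold or more, 5 of 21 kept members were higher and 1 lower, and 5 of 21 is close to the 25.4% of all kept genes. Pgk1, phosphoglycerate kinase, was the 1 member 2-fold higher with bounds apart, at 12.0 FPKM (5.51 to 18.4) in WT and 36.8 (23.4 to 50.2) in NLRP3KO. Aldoa, the muscle-type aldolase, went from 69.1 FPKM (48.5 to 89.7) to 142 (111 to 174), a ratio of 1.88 (1.27 to 2.80), and its scaled bounds did not overlap either although its log2 difference, 0.86, was under 2-fold. Ldha, lactate dehydrogenase A, was level at 75.1 and 74.0 FPKM, and Pkm2, pyruvate kinase, at 92.7 and 103 FPKM.

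Secreted, matrix and granule genes held 140 fragments in WT and 262 in NLRP3KO, a ratio of 2.15 (1.74 to 2.66). Of 30 kept members 14 were higher by 2-fold or more and 6 lower, and the 4 with bounds apart and above 0 in both were all higher. Tgm2, transglutaminase 2, which crosslinks proteins, lies at mm9 chr2:157942141-157972128. It had 1 fragment in WT (0.486 FPKM, bounds 0 to 1.40) and 28 in NLRP3KO (17.3 FPKM, 11.3 to 23.1). Its ratio of 32.1 has an interval from 5.31 to 1314, so the files fix its direction and not its size. Ecm1, an extracellular matrix protein linked to Th2 cell egress from lymph nodes, rested on 7 and 49 fragments, a ratio of 8.04 (3.62 to 21.0). Srgn, serglycin, the core protein of granule proteoglycans, had 3 and 22 fragments. Lif, a cytokine of the IL-6 family, was at 3.63 FPKM (0.881 to 6.77) and 11.5 (6.34 to 16.7), and these bounds overlapped after scaling. Vim, vimentin, was the most abundant member and nearly level at 41.2 and 51.1 FPKM. Without Vim the list's ratio was 2.59 (2.03 to 3.32).

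Genes of the Th2 lineage were mixed, with 9 of the 15 members above 0 in both libraries higher and 6 lower. Gata3, the lineage factor, was at 15.6 FPKM (10.3 to 20.6) in WT and 14.4 (8.51 to 19.6) in NLRP3KO. Irf4, the partner factor of GATA3 in Th2 cells, was at 21.9 FPKM (16.3 to 27.2) and 20.4 (14.4 to 26.1), and Il4ra, the receptor that reads the added IL-4, at 12.7 and 11.9. The intervals of their ratios, 0.463 to 1.51, 0.557 to 1.26 and 0.50 to 1.41, all held 1. The cytokines were at the edge of detection: Il4 rested on 1 fragment in WT (3.77 FPKM, 0 to 18.9) and was listed at 0 in NLRP3KO, and Il5 and Il13 were listed at 0 in both. A difference in these 3 cytokines was not detectable at this depth, since 3 fragments of Il4 would need 11.3 FPKM in WT and 14.4 in NLRP3KO. Il24, an IL-10-related cytokine, and Penk, the enkephalin precursor, were listed at 0 in WT and stood at 19.5 (7.54 to 30.2) and 11.6 FPKM (4.47 to 19.4) in NLRP3KO. Rbpj, the DNA-binding partner of Notch, went from 4.89 FPKM (2.51 to 7.56) to 16.4 (11.3 to 21.5), a ratio of 3.06 (1.53 to 6.53). Maf was listed at 0 in WT and at 1.80 FPKM (0 to 3.47) in NLRP3KO. The list as a whole held 208 and 289 fragments, a ratio of 1.59 (1.33 to 1.92), with 11 of 22 kept members at least 2-fold higher and 2 lower.

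Receptors and signal transducers of cytokines were higher in part. The JAK-STAT list had a ratio of 1.38 (1.19 to 1.61), with 12 of 31 kept members at least 2-fold higher and 2 lower. Its 3 members with bounds apart were all higher. Stat3, the transducer of IL-6 and IL-21 signals, was at 2.29 FPKM (0.381 to 4.58) in WT and 10.2 (5.33 to 15.0) in NLRP3KO. Socs3, a feedback inhibitor of that pathway, was at 3.21 (0.608 to 5.47) and 13.1 (6.95 to 18.5). Il21r, the IL-21 receptor, was at 5.38 (1.90 to 8.25) and 17.1 (9.68 to 24.2). Il21 itself was listed at 0 in WT and at 2.88 FPKM (0.685 to 5.48) in NLRP3KO. Il2ra, the alpha chain of the IL-2 receptor, had enough fragments for a narrow interval: 62 and 89, a ratio of 1.65 (1.18 to 2.32). Il2rb, its beta chain, had a ratio of 1.86 (1.05 to 3.37). Jak2, a cytokine receptor kinase, differed by -0.16 on the log2 scale, Pim1, a survival kinase, by -0.24 and Il12rb1, a subunit of the IL-12 receptor, by 0.15.

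Genes linked to Treg and activated T cells, most of them receptors, were higher in the sum. The Treg list had a ratio of 1.87 (1.45 to 2.40), and 2.24 (1.52 to 3.35) without Il2ra, with 9 of 13 kept members at least 2-fold higher and 1 lower. Of the kept members, 3 were listed at 0 in WT. Tnfrsf9, the costimulatory receptor 4-1BB, was at 6.25 FPKM (0 to 12.5) in WT and 25.05 (14.02 to 36.1) in NLRP3KO, and Ctla4, an inhibitory receptor, at 1.85 (0 to 4.29) and 10.6 (4.36 to 16.3). Tnfrsf4, another receptor, ran the other way at 14.8 and 10.4 FPKM, and Folr4 was nearer level at 15.6 and 21.7, both with overlapping bounds. No member was at least 2-fold higher with bounds apart. The deposited bounds of Tnfrsf9 and Ctla4 did not overlap, but they did after scaling. Foxp3, the defining factor of Treg cells, was listed at 0 in both libraries, as were Ikzf2 and Tigit. Cd28, the costimulatory receptor bound by the plate-coated antibody, had 5 and 19 fragments, a ratio of 4.36 (1.58 to 14.9). The T cell receptor and costimulation list as a whole was level, with a ratio of 1.03 (0.838 to 1.26). Cd3d and Trat1, an adaptor of the receptor, were at 8.39 and 12.3 FPKM in WT and listed at 0 in NLRP3KO.

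Immediate early genes, which are switched on within minutes of a stimulus, held 113 and 159 fragments, a ratio of 1.62 (1.26 to 2.07). Fosl2, an AP-1 subunit, was the 1 member above 0 in both libraries with bounds apart, with 3 and 20 fragments (ratio 7.65, 2.27 to 40.2). Ier3, a stress-induced early response gene, was listed at 0 in WT and at 8.91 FPKM (1.93 to 15.4) in NLRP3KO. Junb went from 8.79 to 22.3 FPKM and Jund from 13.3 to 7.70, and the bounds of each overlapped. The NF-kappaB list had a ratio of 1.17 (0.870 to 1.58), although Tnfaip3, its feedback inhibitor A20, had 4 and 14 fragments (ratio 4.02, 1.26 to 16.8).

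Genes of the BCL2 family and caspases went both ways. Mcl1, a short-lived antiapoptotic BCL2 family protein, was at 3.96 FPKM (1.42 to 6.17) in WT and 18.3 (12.1 to 24.1) in NLRP3KO, from 8 and 30 fragments. Bcl2 itself was at 6.99 and 11.7 FPKM and Bcl2l1, which encodes BCL-xL, at 8.93 and 4.73, both with overlapping bounds. Pmaip1, a proapoptotic p53 target, and Casp6, an executioner caspase, were listed at 0 in WT and at 3.35 (0.793 to 6.34) and 8.03 FPKM (1.45 to 14.5) in NLRP3KO. Fadd, a death receptor adaptor, was at 2.43 FPKM (0.576 to 4.61) in WT and listed at 0 in NLRP3KO. The ratio of the BCL2 family and caspase list, 1.74 (1.27 to 2.40), was 1.42 (0.994 to 2.04) without Mcl1. The p53 target list had a ratio of 1.87 (1.46 to 2.40), with 13 of 27 kept members at least 2-fold higher and 4 lower. Its 2 members above 0 in both libraries with bounds apart were Ccng1, cyclin G1, at 6.94 (3.80 to 10.4) and 18.3 FPKM (12.1 to 24.1), and Ddit4, an inhibitor of mTORC1 that also belongs to the hypoxia list, at 6.45 (1.96 to 10.8) and 21.9 (12.5 to 32.5). Cdkn1a, the cell cycle inhibitor p21, was at 11.3 and 26.2 FPKM with a ratio of 2.10 (0.997 to 4.67).

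The amino acid transporters formed the list with the lowest ratio. These membrane proteins import the leucine, arginine, glutamine and serine that activated T cells consume. The list held 89 fragments in WT and 27 in NLRP3KO, a ratio of 0.348 (0.218 to 0.541), and 7 of 12 kept members were at least 2-fold lower against 1 higher. Slc7a5, the light chain of the leucine transporter LAT1 (mm9 chr8:124405046-124431586), was at 6.88 FPKM (3.77 to 10.4) in WT and 0.625 (0 to 1.80) in NLRP3KO, from 14 and 1 fragments. Slc3a2, the heavy chain that pairs with it, went the same way at 7.98 (3.23 to 12.7) and 1.73 FPKM (0 to 5.99), a ratio of 0.191 (0.0208 to 0.859). Slc7a1, a carrier of arginine and lysine, had 20 and 3 fragments, and Slc38a2, a carrier of small neutral amino acids, 8 and 1. Slc1a5, the glutamine carrier ASCT2, was closer to level at 7.60 FPKM (3.601 to 11.4) and 5.64 (1.53 to 9.15).

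Enzymes of serine synthesis and folate-bound one-carbon units held 117 and 56 fragments, a ratio of 0.549 (0.392 to 0.762). The difference was widest in 2 mitochondrial steps. Shmt2, which splits serine in mitochondria (mm9 chr10:126954179-126959500), was at 16.9 FPKM (9.20 to 24.5) in WT and 1.95 (0 to 4.89) in NLRP3KO, a ratio of 0.104 (0.0119 to 0.424). Mthfd2, the next mitochondrial enzyme, was at 9.46 FPKM (3.998 to 14.4) in WT, from 11 fragments, and listed at 0 in NLRP3KO. Psat1, in serine synthesis, was at 15.5 (8.89 to 22.9) and 10.4 (3.11 to 17.6), and Phgdh, the entry enzyme of that pathway, at 4.80 and 4.27. In 6 of 20 kept members the difference was 2-fold or more downward and in 2 upward, and 6 of 20 is close to the 27.2% of all kept genes. Shmt2 was the 1 member above 0 in both libraries with bounds apart.

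**Figure D4:**
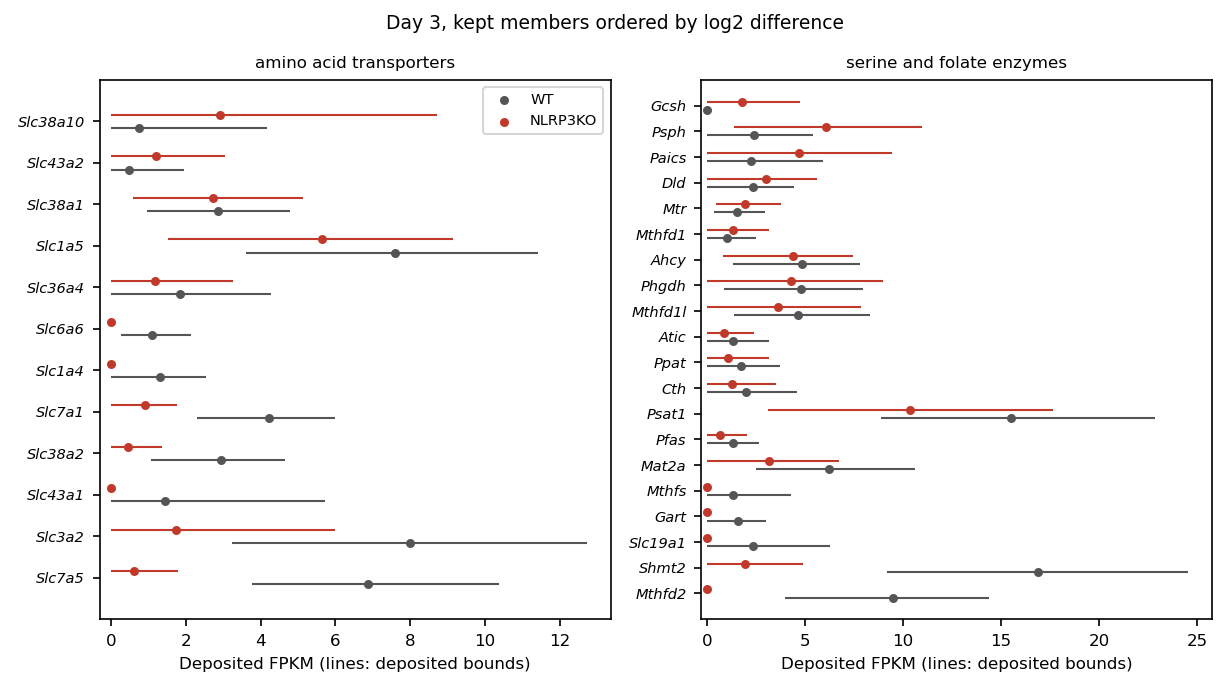
Deposited FPKM of the 12 kept amino acid transporters (left) and the 20 kept serine and folate enzymes (right) at day 3, WT in grey and NLRP3KO in red. Points are FPKM and lines the deposited bounds, and the bounds of Slc7a5, Slc7a1 and Shmt2 lie lower in NLRP3KO without overlap, while those of Slc3a2, Slc38a1, Slc1a5, Phgdh and Ahcy overlap and Mthfd2 is listed at 0 in NLRP3KO.

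Genes of the amino acid response, which ATF4 induces when amino acids run short or protein folding is disturbed, were lower. Their 78 and 33 fragments gave a ratio of 0.486 (0.313 to 0.738), with 10 of 16 kept members at least 2-fold lower and 1 higher. No member had bounds apart, and 7 of the 16 were listed at 0 in NLRP3KO, the shallower library. The median log2 difference was -1.88 over kept members and -0.44 over the 8 above 0 in both libraries. Of those 8, 7 were lower and 1 higher. Atf4 was at 10.5 FPKM (4.80 to 16.3) and 7.99 (2.44 to 13.4), with overlapping bounds. Asns, asparagine synthetase, was at 7.43 (2.58 to 12.0) and 1.18 (0 to 3.28), from 8 fragments and 1. Atf5, a related factor, was at 8.75 (2.82 to 14.7) in WT and listed at 0 with an upper bound of 3.64 in NLRP3KO. The promoter of Asns is shown with the amino acid response element core, TGATGNAA on either strand with N any base, in capitals, from the same RefSeq table and window.
Asns (chr6:7693210-7693459, minus strand): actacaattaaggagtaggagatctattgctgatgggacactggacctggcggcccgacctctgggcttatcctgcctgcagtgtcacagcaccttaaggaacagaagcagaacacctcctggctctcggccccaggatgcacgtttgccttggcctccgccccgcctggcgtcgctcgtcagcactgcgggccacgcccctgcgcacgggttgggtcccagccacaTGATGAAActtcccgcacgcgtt
This core was found in 6 of 15 matched members of the ATF4 list (40.0%) and in 3 of 14 of the tRNA synthetase list (21.4%), against 2.40% of kept genes and 3.91% of all genes. The ATF4 list was drawn largely from known targets, so a high share follows from how it was made. A match is not evidence of binding. It was found in 0 of 18 matched serine and folate enzymes and 0 of 8 matched amino acid transporters. The absence says only that these letters are not within 250 bases of the start.

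The list of aminoacyl-tRNA synthetases, which load amino acids onto tRNA, was lower in the sum. It also held Aimp1, Aimp2 and Eef1e1, which are not synthetases. The list's 162 and 66 fragments gave a ratio of 0.468 (0.346 to 0.626), with 13 of 22 kept members at least 2-fold lower and 2 higher. Yars, for tyrosine, was at 6.67 FPKM (2.43 to 10.9) in WT and 0.771 (0 to 3.66) in NLRP3KO. Vars, for valine, was at 10.96 (7.05 to 14.9) and 5.76 (2.49 to 8.96), and Gars, for glycine, at 9.59 (4.85 to 13.8) and 3.75 (0.880 to 7.04). No single member had bounds apart. The median log2 difference was -1.11 over kept members and -1.07 over the 18 above 0 in both libraries, of which 15 were lower and 3 higher. Sars, for serine, ran the other way at 4.27 and 7.24 FPKM, and Rars, for arginine, at 3.34 and 4.24, both with overlapping bounds.

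Ribosome biogenesis genes and Myc, the transcription factor that drives many of them, held 378 fragments in WT and 145 in NLRP3KO. Their ratio was 0.440 (0.361 to 0.535), and 37 of 69 kept members were at least 2-fold lower against 5 higher. Ncl, nucleolin, had the most fragments, 58 and 18, at 11.2 FPKM (8.22 to 14.03) and 4.41 (2.55 to 6.37). Npm1, nucleophosmin, was at 43.5 (27.3 to 59.6) and 12.7 (1.70 to 23.9), and Pa2g4, a nucleolar protein that binds ErbB3, at 9.41 (4.76 to 13.6) and 2.76 (0 to 5.19). These 3 genes had bounds apart. Myc was at 12.5 FPKM (5.89 to 19.1) and 6.53 (0 to 13.1), with overlapping bounds. The proteins of the ribosome itself were level: cytosolic ribosomal proteins had 990 and 845 fragments, a ratio of 0.980 (0.893 to 1.08), with 11 of 74 kept members higher and 7 lower. Translation factors had a ratio of 0.896 (0.806 to 0.994). Within them Eef1a1, the elongation factor with 202 and 224 fragments, was higher at 1.27 (1.05 to 1.55), and without it the list stood at 0.771 (0.679 to 0.874).

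Genes of cell division were lower to different degrees. Replication-dependent histones, made in S phase and mostly without poly(A) tails, held 647 and 244 fragments, a ratio of 0.433 (0.372 to 0.502), with 42 of 64 kept members at least 2-fold lower and 5 higher. Histone genes are near-identical copies, and how the authors' counting divided reads among them is not given in the sources used here, so single members are uncertain. Hist1h3e was at 109 FPKM (44.3 to 141) and 21.8 (0 to 40.9). DNA replication genes had a ratio of 0.582 (0.483 to 0.700), with 30 of 59 kept members lower and 2 higher. Ccnd2, cyclin D2, ran against this with 53 and 54 fragments, and without it the ratio was 0.476 (0.383 to 0.590). Cdt1, Tipin, Prim2, Asf1b and Pola1, of the replication list, were listed at 0 in NLRP3KO and had WT bounds above 0. Any lower bound above 0 meets that count, so it alone does not show separation. In all, 18 of the 59 kept replication genes were listed at 0 in NLRP3KO and 1 in WT. Their median log2 difference was -1.01, and -0.53 over the 40 above 0 in both libraries. Mitosis and spindle genes had a ratio of 0.770 (0.650 to 0.910). Mki67, the proliferation antigen Ki-67, was at 9.83 FPKM (7.39 to 12.3) and 5.08 (3.13 to 7.10), whereas Top2a, topoisomerase II alpha, was at 7.51 (4.44 to 10.5) and 9.13 (5.65 to 12.9).

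Nuclear transport and lamina genes had a ratio of 0.654 (0.538 to 0.794), and their 5 members above 0 in both libraries with bounds apart were all lower. Kpnb1, importin beta, was at 7.47 FPKM (4.76 to 10.1) and 2.92 (1.07 to 4.63), and Rcc2, a regulator of chromosome condensation, at 8.68 (4.83 to 12.3) and 2.32 (0.558 to 4.47). Ranbp2, a nucleoporin, ran the other way at 1.95 (0.873 to 2.97) and 4.96 (2.89 to 6.88). Splicing factors had a ratio of 0.619 (0.524 to 0.730), with 27 of 61 kept members lower and 5 higher. Hnrnpu, which binds nuclear RNA and chromatin, had 33 and 8 fragments (ratio 0.278, 0.111 to 0.614), while Sf3b1, a branch-site factor, was at 3.56 (1.87 to 5.35) and 7.31 (4.42 to 10.2). HMG proteins and other chromatin and RNA export genes had a ratio of 0.528 (0.395 to 0.699), and H2afx, the variant H2A.X, was at 30.0 FPKM (18.3 to 41.4) and 10.4 (3.10 to 17.0).

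The chaperone lists differed in their sums. The cytosolic and mitochondrial heat shock list had a ratio of 0.615 (0.510 to 0.739), and Hsp90ab1, a cytosolic HSP90, accounted for 164 and 81 of its 336 and 180 fragments. Hspa9, the mitochondrial HSP70, was at 13.7 FPKM (8.71 to 19.04) and 2.18 (0 to 4.15), and Hspd1, HSP60, at 4.54 (1.42 to 7.81) and 0. The median log2 difference of the 23 kept members was -0.08, so the sum was carried by the abundant members. Endoplasmic reticulum chaperones had a ratio of 1.297 (1.07 to 1.57), which was 1.06 (0.864 to 1.304) without Ero1l. Hspa5, the chaperone BiP, was at 18.8 (11.4 to 26.1) and 7.93 FPKM (1.76 to 14.1). The list of the CCT chaperonin, which folds actin and tubulin, also held prefoldin genes and had a ratio of 0.822 (0.576 to 1.17).

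Mitochondrial lists had ratios below 1 at day 3, though not all of their intervals lay below 1. Mitochondrial ribosomal proteins had a ratio of 0.554 (0.374 to 0.810) and a median log2 difference of -0.66, which was 0.12 over members above 0 in both libraries. Tricarboxylic acid cycle enzymes had a ratio of 0.636 (0.434 to 0.923). The respiratory chain was closer to level, at 0.792 (0.643 to 0.972), and 0.821 (0.655 to 1.03) without Atp5b. Of its 65 kept members 21 were at least 2-fold higher and 25 lower, against 25.4% and 27.2% of all kept genes. Mitochondrial import and carrier genes had a ratio of 0.858 (0.638 to 1.15), an interval that holds 1. Vdac1, the pore of the outer membrane and a member of that list, ran against these lists with 3 and 18 fragments (ratio 6.89, 2.01 to 36.5). Many of these genes have short transcripts, and a short transcript collects few fragments. Mrpl52, for example, was at 37.4 FPKM (8.03 to 64.3) in WT from 6 fragments and listed at 0 in NLRP3KO.

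Of the lipid synthesis lists, that of fatty acids rested on Scd2. Scd2, a stearoyl-CoA desaturase, was at 24.3 FPKM (18.7 to 30.0) in WT and 57.1 (47.6 to 66.6) in NLRP3KO, a ratio of 2.13 (1.58 to 2.89). It decided the fatty acid list, whose ratio of 1.39 (1.11 to 1.73) was 0.756 (0.526 to 1.08) without it. Fasn, fatty acid synthase, was at 4.39 and 3.01 FPKM with overlapping bounds. Sterol synthesis genes had a ratio of 1.42 (1.06 to 1.93), and 1.54 (1.12 to 2.13) without Srebf2. Of their 23 kept members 9 were at least 2-fold higher and 1 lower. Over the 18 above 0 in both libraries, 11 were higher and 7 lower, with a median log2 difference of 0.14. Hsd17b7 and Ebp, late enzymes of the pathway, were listed at 0 in WT and had NLRP3KO bounds above 0, which alone does not show separation.

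Actin cytoskeleton genes held 914 and 675 fragments, a ratio of 0.848 (0.766 to 0.937), and 0.883 (0.783 to 0.995) without Actb, with 8 of 56 kept members at least 2-fold higher and 9 lower. Cfl1, cofilin, which severs actin filaments, was the 1 member with bounds apart, at 67.0 FPKM (43.3 to 89.5) in WT and 28.4 (14.2 to 40.9) in NLRP3KO. Genes of naive and quiescent T cells had a ratio of 1.41 (1.13 to 1.77), and 1.48 (1.15 to 1.91) without Satb1, a chromatin organiser of T cells. Of their 23 members above 0 in both libraries 11 were higher and 12 lower.

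MHC genes had a ratio of 1.49 (1.17 to 1.89). It was 1.26 (0.968 to 1.65) without H2-K1, an interval that holds 1. H2-K1, a class I heavy chain, was at 16 FPKM (8.04 to 23.1) and 54.7 (37.1 to 71.6). H2-D1, its close relative, was level at 15.8 and 18.1 FPKM, and similar sequence between the class I genes makes that split uncertain. The long noncoding RNA list had a ratio of 1.79 (1.53 to 2.09), most of it Malat1, a nuclear RNA with 217 and 364 fragments (ratio 1.93, 1.62 to 2.29), and 1.21 (0.820 to 1.79) without it. The inflammasome list held 15 and 35 fragments, a ratio of 2.68 (1.43 to 5.28), or 1.98 (0.897 to 4.61) without Txnip. Pycard, the adaptor ASC, was listed at 0 in WT and at 4.23 FPKM (0.985 to 7.88) in NLRP3KO. Txnip, a redox regulator described as an NLRP3 ligand, was at 2.495 (0 to 4.99) and 12.7 (6.34 to 19.03). Casp1, Il1b and Il18 were listed at 0 in both libraries. Id2, an inhibitor of E proteins, had 1 and 13 fragments (ratio 14.9 with a lower limit of 2.24), and S100a6 was listed at 0 in WT and at 22 FPKM (5.85 to 38.0) in NLRP3KO.

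Several of the genes with the largest differences were in none of the lists. Atp2b4, a plasma membrane calcium pump, was at 0.624 FPKM (0 to 1.66) in WT and 5.55 (3.17 to 7.93) in NLRP3KO, from 3 and 21 fragments. Sema4f, a semaphorin, was at 2.01 (0 to 4.23) and 13.4 (7.26 to 19.6), and Rnf19b, a ubiquitin ligase, at 2.08 (0 to 3.92) and 12.3 (6.65 to 18.3). Gnai2, an inhibitory G protein subunit used by chemokine receptors, was at 3.26 (0.760 to 6.08) and 17.6 (9.66 to 25.1). Baz1a, a chromatin remodelling subunit, and Rabgap1l were higher as well, and Smc1a, a cohesin subunit, and Pspc1, a paraspeckle protein, were lower. Pspc1 was at 7.43 (3.48 to 11.8) and 0.943 (0 to 2.66).

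Genes listed at 0 in 1 library were kept apart, since Cufflinks can also list 0 where its estimate failed. There were 953 such genes in WT and 1023 in NLRP3KO, together 34.4% of kept genes. In 61 and 113 of them the bounds of the other library did not reach the bounds of the 0. A 0 mostly carried bounds of 0 to 0, so any lower bound above 0 met this count. The FPKM of 3 fragments is a wider limit. For S100a6 it was 8.67 in WT, above the NLRP3KO lower bound of 5.85. The 2 counts alone therefore do not show separation. Among the highest of the 61 and 113 genes, Rnf181, Crip1, Cisd3, Hsd17b10 and Calm2 were listed at 0 in WT, and Mrpl52, Rpl36al, Mrpl33, Ndufa7 and Uqcrh in NLRP3KO. Each rested on 3 to 12 fragments in the library where it was above 0. No fold is given for them.

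The same lists at day 6 came from 2 other libraries, and the NLRP3KO library at day 6 held only 4797 fragments on genes against 26998 in WT. The 2 day 6 libraries were at 0 for Xist, while the WT library was above 0 for Ddx3y, Kdm5d and Uty and the NLRP3KO library for Eif2s3y, so the cells of the 2 days differed in their sex-linked transcripts as well as in time. Of the 19 lists above 1 at day 3, all 19 had a day 6 ratio above 1, 11 with an interval above 1. Of the 17 lists below 1, 16 had a day 6 ratio below 1, 9 with an interval below 1. Hypoxia genes stood at 2.04 (1.501 to 2.74) at day 6 and secreted genes at 2.11 (1.501 to 2.92). Amino acid transporters stood at 0.214 (0.0574 to 0.565) and ribosome biogenesis genes at 0.417 (0.271 to 0.618). The tricarboxylic acid cycle was the exception, at 1.67 (0.990 to 2.72). Of single genes, Ecm1 was at 8.09 and 57.3 FPKM at day 6 in WT and NLRP3KO, Hif1a at 4.62 and 15.0, and Slc7a5 and Shmt2 at 7.91 and 16.5 in WT and at 0 in NLRP3KO. The median FPKM of 3 fragments in the day 6 NLRP3KO library was 8.56, so a 0 there says little for a gene such as Slc7a5. Cd28 was at 5.53 and 1.85 FPKM at day 6 and Stat3 at 4.14 and 1.80, the reverse of their order at day 3, though each NLRP3KO value rested on about 1 fragment. Srgn, at 29.0 and 19.5 FPKM, and Junb, at 17.8 and 9.11, were reversed as well, with 2 NLRP3KO fragments each.

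**Figure D5:**
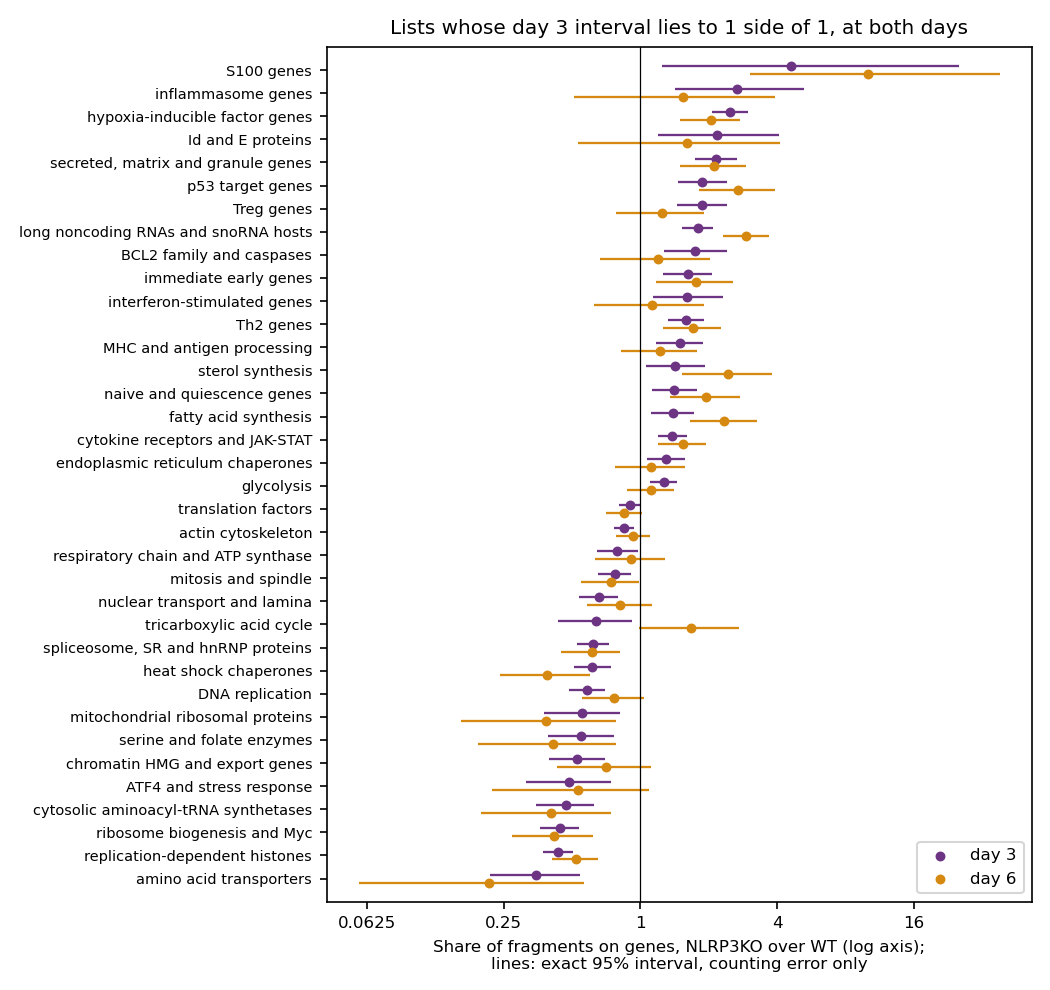
Ratio of the share of fragments, NLRP3KO over WT, at day 3 (purple) and day 6 (orange) for the 36 lists whose day 3 interval lies to 1 side of 1, on a logarithmic axis. Points are ratios and lines exact 95% intervals for counting error, most day 6 lines are wider, and only the tricarboxylic acid cycle sits on opposite sides of 1.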

How the data were processed

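RNA-seq was done once per group in the 6 libraries of the series, of which the WT and NLRP3KO libraries of Th2 cells at day 3 are compared here. The authors deposited FPKM per gene model with lower and upper confidence bounds. TopHat, Cufflinks and build mm9 are named in the submitters' processing notes, without versions. The files' starts count from 0 and are printed with 1 added.

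FPKM values of status OK were divided by the median ratio over 1059 genes that reach an FPKM of 1 in each of the 6 libraries (0.496 in WT and 0.562 in NLRP3KO), and differences are on the scale log2(scaled FPKM + 1). Genes reaching an FPKM of 1 in either library were kept. Fragments were inferred from the deposited bounds, whose steps are those of whole fragments. For 385 and 356 genes with 1 transcript, 72.5% and 74.7% of the inferred numbers lay within 20% of that from transcript length. The method was tested on simulated data. Ratios of shares are the fragments of a gene or list over fragments on genes, with exact Clopper-Pearson 95% intervals. PCR copies are not independent molecules, so intervals and the floor of 3 fragments cover counting error only. Pooled shares leave out small RNAs and gene models of up to 300 bases. Python 3.11.15, pandas 2.3.3 and scipy 1.17.1 were used.

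Members and gene lists were chosen with earlier results of these data known. Genes named by rule were Nlrp3 and 6 Th2 genes, the 20 highest and 20 lowest log2 differences with bounds apart and an FPKM of at least 5 in 1 library, the 10 highest genes listed at 0 in each direction, and in each list the members with bounds apart and up to 4 with most fragments. Other genes were named for their roles after their values were seen. Alternatives covered the pseudocount, the minimum FPKM, the scaling, genes listed at 0 and the largest member of each list. Promoters are from RefSeq, GRCm38.p6, matched by symbol.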

Additional observations from a re-analysis of the deposited data

Results flagged for a closer look

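The tricarboxylic acid cycle enzymes differed between the days: their share of fragments in NLRP3KO over WT was 0.636 (0.434 to 0.923) at day 3, from 83 and 46 fragments, and 1.67 (0.990 to 2.72) at day 6, from 74 and 22 fragments. The difference between the days was not tested, since each group holds 1 library.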

How the results depend on the processing

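No paired analysis was possible because each group has 1 library, and for the same reason no library could be left out. Counts of 2-fold differences depended on low values: with a pseudocount of 5 there were 384 higher and 475 lower, with a minimum FPKM of 5 there were 302 and 286, and with only genes above 0 in both libraries 508 and 540. Counting genes listed at 0 gave 108 higher and 145 lower genes with bounds apart. The added genes were set against the bounds of a 0, so that count alone does not show separation. With FPKM as deposited, 47 of the 47 higher and 25 of the 32 lower genes with bounds apart were called again. Of the list medians recomputed under alternatives, 421 stayed within the 95% order-statistic range of their members' log2 differences, 15 moved out of it and 4 reversed. With a minimum FPKM of 5, the medians were 1.51 for hypoxia genes, -2.07 for amino acid transporters, -0.83 for heat shock chaperones and -1.74 for nuclear transport. With a pseudocount of 0.1, they were -2.35 for amino acid transporters, -2.77 for ATF4 genes, 6.33 for S100 genes, 3.58 for inflammasome genes and 0.16 for the respiratory chain, whose median was 0.28 as deposited and 0.16 scaled by fragments on genes. With a pseudocount of 5, ribosome biogenesis stood at -0.52. With members listed at 0 entered at the FPKM of 3 fragments, the medians were -0.34 for DNA replication, -0.50 for ribosome biogenesis, and, reversed, -0.87 for Id and E proteins, -0.35 for inflammasome genes and 0.13 for mitochondrial ribosomal proteins. With only genes above 0 in both, DNA replication stood at -0.53 and mitochondrial ribosomal proteins reversed to 0.12. Without the member with most fragments, pooled ratios were 1.06 for endoplasmic reticulum chaperones, 0.476 for DNA replication, 1.21 for long noncoding RNAs, 0.771 for translation factors and, reversed, 0.756 for fatty acid synthesis. Beyond these, the cause of each change was not tested.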
